A study of Mus musculus with 6 samples.

Results

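Genes of glycolysis, glucose transport and glycogen metabolism were examined in left ventricles of mice given 2-methyl-2-thiazoline (2MT) and of mice given saline. The set is a list of 35 gene symbols, taken through the probe sets that the platform annotation assigns to them and covering the path of glucose from membrane transport to lactate and the making and breaking of glycogen. Of these, 31 genes had a probe set annotated with that symbol alone, out of 19938 such genes on the array, and 30 were bright enough to test, out of 10547. Slc2a3 was too dim, Gapdh lay only on probe sets that list several genes, and Eno1, Gpi1 and Pfkfb1 had no probe set named here.

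The samples were 3 arrays of 2MT hearts and 3 arrays of saline hearts, all from 10-week-old male C57BL/6 mice. 2MT, a small thiazoline compound, was given subcutaneously, 50 mg per kg, with hearts taken after 4 h. The protocol text of every sample describes only the 2MT injection, so the saline group is known from its treatment label, and no saline volume or route is stated. The labels do not say that each array is a separate animal, so the p-values below reflect only how far these samples scatter, in which technical variation may dominate. The purpose of the study was to learn how 2MT protects the heart.

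Glucose enters heart muscle through facilitative transporters: Slc2a1 encodes GLUT1, which serves basal uptake and is also the transporter of endothelial cells, and Slc2a4 encodes GLUT4, which moves to the surface with insulin or contraction. Hexokinase then traps glucose as a phosphate that either runs down glycolysis to pyruvate and lactate or is stored as glycogen. The adult heart burns mainly fatty acids, and glucose and its glycogen store gain weight when oxygen is short.

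Over the 10547 tested genes, correlations were 0.992 to 0.995 for arrays of the same treatment and 0.987 to 0.990 for arrays of opposite treatments. Saline 3 stood apart on the second principal component, at -11.63 against -1.12 to 4.65 for the other arrays. It also had the highest mean of the 2 erythrocyte markers that could be tested of 11 listed (Alas2 and Bpgm), at 6.92 in log2 signal. That mean was 5.77 to 6.08 on the 2MT arrays and 5.76 to 5.85 on the other saline arrays. The labelled tissue was checked against its markers, and all 10 cardiomyocyte genes were bright, with an array mean of 12.35 to 12.38 in 2MT and 12.32 to 12.34 in saline. Of 11 skeletal muscle markers, Myh1, Myh2, Myh4, Actn3, Pvalb and Mylpf were under the dim floor, while Ckm, Acta1, Mybpc2, Tnnt3 and Tnni2 were above it. Ckm averaged 10.94 in 2MT hearts and 10.98 in saline hearts, and Acta1 averaged 9.22 and 9.59. Neither passed in limma (adjusted p = 0.68 for Ckm and 0.27 for Acta1).

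Of the 30 genes tested, 3 fell in 2MT hearts and 0 rose in limma, a linear model with moderated variances (adjusted p under 0.05 over all genes tested). They were Slc2a1, Gbe1, the glycogen branching enzyme, and Phka1, the muscle alpha subunit of phosphorylase kinase. Their share, 10.0% of the tested set, stands beside 2.41% lower and 2.22% higher among all 10547 genes (4.63% in either direction). The count over all genes moved by over 1.5 times without saline 1, 2MT 2 or 2MT 3, to 298, 276 and 262 genes against 488, while the same 3 genes of the set passed in each of those fits. At an unadjusted p under 0.05, 11 of the 30 passed (36.7%), against 1873 of all genes tested (17.8%). The groups did not overlap in 9 of the 30 (30.0%), against 21.1% of all genes tested. The set also scattered less within groups, with a median pooled SD of 0.074 against 0.0996 over all genes tested. The part of this smaller scatter in the 2 higher shares was not tested. The set was chosen with earlier results of these data known, so its shares are not a test of the set.

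The differences in the set went both ways. Its median log2 difference, 2MT minus saline, was 0.015, with 16 means higher and 14 lower, beside a median of 0.0033 over all genes tested. The median size of a difference was 0.085 in the set and 0.087 over all genes.

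**Figure D1:**
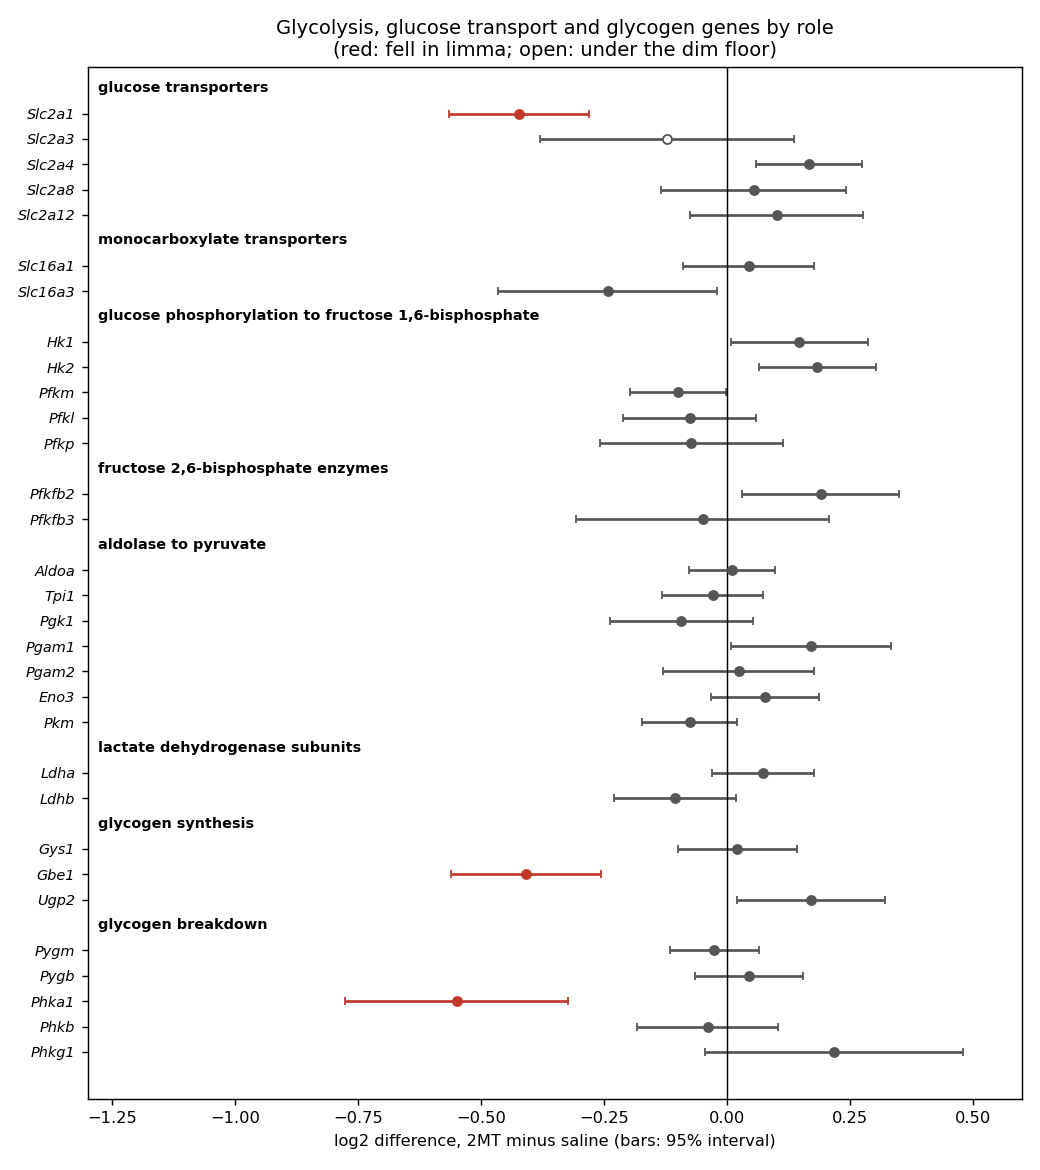
Log2 differences (2MT minus saline, 3 arrays each) of the 31 measured genes grouped by role, with 95% intervals from limma; red points fell and the open point, Slc2a3, lay under the dim floor and comes from the fit with no dim filter. The 3 red intervals lie between -0.78 and -0.26, and most others cross or touch 0.

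Slc2a1 had a log2 signal of 6.51, 6.53 and 6.46 on the 2MT arrays, against 6.92, 6.95 and 6.90 on the saline arrays. Each group stayed within 0.07 of itself and the groups were far apart relative to that spread. Slc2a1 thus fell by 0.42 ± 0.07 (SE) on the log2 scale, 1.34-fold lower (adjusted p = 0.0020), averaging 6.50 ± 0.04 in 2MT hearts, against 6.92 ± 0.03 in saline hearts (SD, n = 3 each), and ranked 98th by p among all genes tested. Endothelial markers are given beside it because GLUT1 is also an endothelial transporter. Of 10 endothelial markers 1, Pecam1, fell and 0 rose, and their median difference was -0.0033. The array mean of the list ran from 7.55 to 7.68 in 2MT and from 7.50 to 7.71 in saline. The markers went both ways, with 5 means higher and 5 lower. Their median size of a difference was 0.15, against 0.087 over all genes. In limma 4 of the 10 had an unadjusted p under 0.05 (40.0%), against 17.8% of all genes tested. The part of endothelial cells in the fall of Slc2a1 was not tested.

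Slc2a4 did not pass and leaned the other way. It had 9.23, 9.20 and 9.22 in 2MT hearts, against 9.06, 8.99 and 9.10 in saline hearts. Every 2MT array was above every saline array, with a difference of 0.17 ± 0.05 (SE) and an adjusted p of 0.080. Its 95% interval, 0.06 to 0.27, excludes a fall of the size seen for Slc2a1. Slc2a12, a further transporter of insulin-sensitive tissues, had 5.72, 5.74 and 5.76 in 2MT and 5.66, 5.55 and 5.71 in saline, also without overlap and without passing (adjusted p = 0.58). Slc2a8, which encodes the mostly intracellular GLUT8, averaged 5.16 ± 0.06 in 2MT hearts, against 5.11 ± 0.01 in saline hearts. Slc2a3, which encodes the high-affinity GLUT3 of neurons, was under the dim floor and averaged 4.04 ± 0.14 in 2MT hearts, against 4.16 ± 0.14 in saline hearts (SD, n = 3 each).

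Slc16a1 and Slc16a3 encode the proton-coupled carriers MCT1 and MCT4 that move lactate across the membrane. MCT4, the exporter typical of glycolytic cells, had 4.25, 4.35 and 4.44 in 2MT, against 4.62, 4.52 and 4.63 in saline. The groups did not overlap, but the adjusted p was 0.24 and the 2MT mean, 4.35, lay at the dim floor of 4.345. Adding an offset of 16 before log2 gave a Slc16a3 difference of -0.14 in place of -0.24. MCT1 averaged 9.06 ± 0.13 in 2MT hearts, against 9.02 ± 0.01 in saline hearts (SD, n = 3 each), with 2MT 2 the lowest of all 6 arrays.

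**Figure D2:**
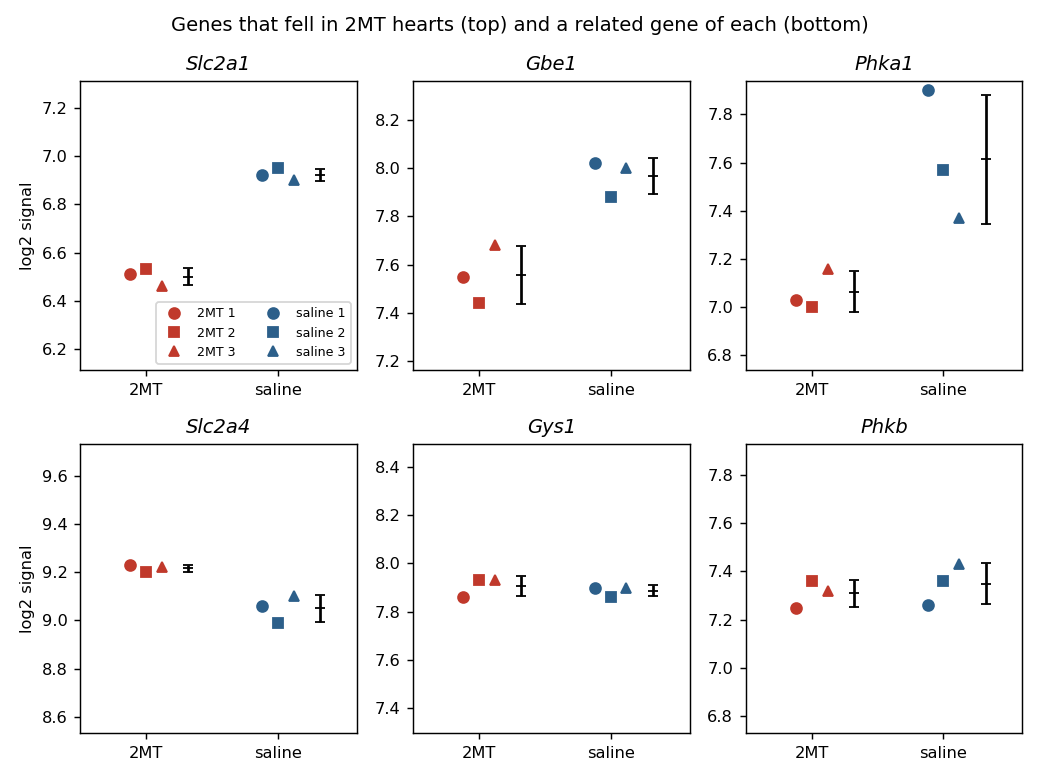
Log2 signal on each array for the 3 genes that fell (top: Slc2a1, Gbe1, Phka1) and for a gene of related role (bottom: Slc2a4, Gys1, Phkb); bars give the mean and SD of 3 arrays, and every panel spans 1.2 log2 units. In the top row each 2MT point lies under each saline point, and in the bottom row Slc2a4 is higher in 2MT without passing while Gys1 and Phkb overlap.

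The first steps inside the cell are catalysed by hexokinase and phosphofructokinase, the main control point of glycolysis. Hk2, the hexokinase of insulin-sensitive muscle, had 9.02, 8.94 and 8.98 in 2MT and 8.89, 8.74 and 8.76 in saline. All 2MT values were above the saline values, with a difference of 0.18 ± 0.06 (SE) and an adjusted p of 0.085. Hk1, the housekeeping hexokinase, had 9.93, 9.92 and 10.07 in 2MT and 9.93, 9.68 and 9.87 in saline on its brighter probe set (adjusted p = 0.26). That probe set is annotated with a single transcript accession. A dimmer Hk1 probe set with 8 accessions averaged 7.76 ± 0.07 in 2MT hearts, against 7.81 ± 0.05 in saline hearts (SD, n = 3 each), so the 2 probe sets gave differences of opposite sign, 0.15 and -0.05, and neither passed.

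The 3 phosphofructokinase genes all had lower means in 2MT and none passed in limma (1 of 3 at an unadjusted p under 0.05). Over all genes tested, 4.63% passed and 17.8% had an unadjusted p under 0.05. Pfkm, the muscle isoform, had 10.31, 10.24 and 10.26 in 2MT, against 10.41, 10.38 and 10.32 in saline. The groups lay just apart, by a difference of -0.10 ± 0.05 (SE, adjusted p = 0.27). Pfkl, the liver isoform, and Pfkp, the platelet isoform, differed by -0.08 and -0.07 and their groups overlapped. Pfkfb2, the heart isoform of the bifunctional enzyme whose product fructose 2,6-bisphosphate activates phosphofructokinase, had 7.89, 7.62 and 7.86 in 2MT and 7.56, 7.66 and 7.58 in saline. Here 2MT 2 fell among the saline values, and the adjusted p was 0.19. Pfkfb3, the inducible isoform, lay near the dim floor and averaged 4.52 ± 0.08 in 2MT hearts, against 4.57 ± 0.21 in saline hearts (SD, n = 3 each).

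From aldolase to pyruvate, 0 of 7 tested genes passed in limma, against 4.63% of all genes tested. At an unadjusted p under 0.05 it was 1 of the 7 (14.3%), against 17.8% of all genes tested. Their differences ran from -0.09 to 0.17 and the 95% intervals of all 7 lay between -0.24 and 0.33. Aldoa, the muscle aldolase, averaged 11.76 ± 0.04 in 2MT hearts, against 11.75 ± 0.03 in saline hearts (SD, n = 3 each). Eno3, the muscle enolase, had 11.36, 11.34 and 11.34 in 2MT and 11.19, 11.23 and 11.39 in saline. The 2MT arrays agreed within 0.02, and saline 3 was the highest of the 6. Pkm, pyruvate kinase, had 10.05, 9.97 and 10.02 in 2MT, against 10.10, 10.09 and 10.08 in saline. Its groups did not overlap at a difference of -0.08 (adjusted p = 0.40), and a second, dimmer Pkm probe set differed by 0.03.

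Phosphoglycerate mutase has a general form, Pgam1, and a muscle form, Pgam2. Pgam1 had 7.63, 7.49 and 7.58 in 2MT and 7.41, 7.25 and 7.53 in saline, a difference of 0.17 (adjusted p = 0.26) that was 0.10 without saline 2. A further pair of Pgam1 probe sets held identical values, 7.15 on every saline array, and gave 0.12. Pgam2 averaged 9.81 ± 0.17 in 2MT hearts, against 9.78 ± 0.07 in saline hearts (SD, n = 3 each). Tpi1, triosephosphate isomerase, and Pgk1, phosphoglycerate kinase, differed by -0.03 and -0.09. Several of these abundant genes have near-identical processed copies in the mouse genome, and their probe sets may also read those copies.

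Lactate dehydrogenase is built from Ldha, the subunit prevalent in glycolytic muscle, and Ldhb, the subunit prevalent in heart. Ldha had 10.84, 10.72 and 10.71 in 2MT and 10.64, 10.68 and 10.73 in saline. Ldhb had 10.66, 10.59 and 10.60 in 2MT and 10.87, 10.66 and 10.64 in saline, where saline 1 was the highest array. Neither passed (adjusted p = 0.47 for Ldha and 0.36 for Ldhb), and a second Ldhb probe set gave -0.08 beside -0.11.

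Glycogen is made by Ugp2, which supplies UDP-glucose, Gys1, the muscle synthase, and Gbe1, which adds the branches. Gbe1 had 7.55, 7.44 and 7.68 in 2MT, against 8.02, 7.88 and 8.0 in saline. The highest 2MT array was 0.20 below the lowest saline array. It fell by 0.41 ± 0.07 (SE), 1.33-fold lower (adjusted p = 0.0041). Gys1 averaged 7.91 ± 0.04 in 2MT hearts, against 7.89 ± 0.02 in saline hearts (SD, n = 3 each), and its 95% interval of -0.10 to 0.14 excludes a change of the size of Gbe1. Ugp2 had 8.72, 8.63 and 8.60 in 2MT and 8.44, 8.36 and 8.64 in saline. Saline 3 lay within the 2MT values and the adjusted p was 0.22. Without saline 3 Ugp2 rose by 0.25 (adjusted p = 0.031), and without saline 2 its difference was 0.11.

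Glycogen is broken down by phosphorylase, which is switched on by phosphorylase kinase, a complex of alpha, beta, gamma and calmodulin subunits. Phka1 had 7.03, 7.0 and 7.16 in 2MT, against 7.90, 7.57 and 7.37 in saline. The groups did not overlap, although the saline arrays covered 0.53 log2 units and Phka1 had the largest pooled SD of the 30 tested genes, 0.20. Phka1 fell by 0.55 ± 0.11 (SE), 1.46-fold lower (adjusted p = 0.0080), the largest difference in the set. Without saline 1 its difference was -0.41 (adjusted p = 0.021), without saline 3 it was -0.67 (0.0015), and its highest adjusted p over the alternatives was 0.0497, without 2MT 2.

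The other subunits did not pass. Phkg1, the muscle catalytic subunit, had 5.04, 5.03 and 5.22 in 2MT and 5.13, 4.87 and 4.64 in saline. Its mean was higher in 2MT by 0.22 ± 0.12 (SE) with overlapping groups (adjusted p = 0.38). That difference was 0.34 without saline 1 and 0.10 without saline 3. Phkb, the beta subunit, averaged 7.31 ± 0.06 in 2MT hearts, against 7.35 ± 0.09 in saline hearts (SD, n = 3 each). Pygm and Pygb, the muscle and brain phosphorylases, differed by -0.03 and 0.04, with 95% intervals between -0.12 and 0.15. The 95% interval of Phkb ran from -0.18 to 0.10, so a fall of the size of Phka1 lies outside the intervals of Phkb and both phosphorylases.

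The promoter windows of the 3 genes that fell are shown so that their start regions can be compared. They are RefSeq sequences of build GRCm38.p6, in windows of 300 bases that end shortly after the annotated start, on the gene's strand. Capitals mark matches, on either strand, to 2 core motifs of hypoxia-inducible factors (ACGTG and GCGTG), the E-box CACGTG, which overlaps ACGTG, or the antioxidant response core TGACNNNGC. Slc2a1 lies at chr4:119108495-119108794 (+), Gbe1 at chr16:70313699-70313998 (+) and Phka1 at chrX:102644197-102644496 (-).
Slc2a1: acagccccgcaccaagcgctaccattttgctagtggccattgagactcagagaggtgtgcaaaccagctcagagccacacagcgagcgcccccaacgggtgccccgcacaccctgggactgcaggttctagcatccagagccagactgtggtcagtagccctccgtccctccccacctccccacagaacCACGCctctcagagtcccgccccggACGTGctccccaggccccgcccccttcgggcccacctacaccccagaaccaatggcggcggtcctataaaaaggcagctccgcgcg
Gbe1: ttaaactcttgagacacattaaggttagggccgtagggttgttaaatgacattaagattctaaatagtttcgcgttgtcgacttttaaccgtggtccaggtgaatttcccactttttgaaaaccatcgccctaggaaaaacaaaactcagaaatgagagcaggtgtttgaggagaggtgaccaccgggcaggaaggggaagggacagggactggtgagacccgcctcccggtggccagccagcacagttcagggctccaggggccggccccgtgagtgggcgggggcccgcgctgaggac
Phka1: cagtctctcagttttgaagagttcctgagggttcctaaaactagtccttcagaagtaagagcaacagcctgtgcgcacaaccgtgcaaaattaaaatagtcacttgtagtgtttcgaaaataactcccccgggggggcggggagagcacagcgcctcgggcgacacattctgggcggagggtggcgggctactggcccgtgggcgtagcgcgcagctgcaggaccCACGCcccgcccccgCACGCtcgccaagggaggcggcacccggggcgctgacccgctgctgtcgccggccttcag

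The Slc2a1 window held 1 ACGTG and 1 GCGTG, starting at positions -36 and -61 from the start site. The Phka1 window held 2 GCGTG matches, at -25 and -10, and the Gbe1 window held no match to any of the 4 motifs. TGACNNNGC was in none of the 3 windows. Of the 35 listed genes 33 had a promoter window, and 42.4% of these held ACGTG against 19.7% of 27025 windows of the same length. The shares were 51.5% against 32.5% for GCGTG, 12.1% against 7.24% for CACGTG, and 3.03% against 12.5% for TGACNNNGC. The windows were not matched for base composition, and the differences in share were not tested. Hk2, with 2 ACGTG matches, and Ldha, with 5, did not pass the test. These matches describe letters and are not evidence of binding.

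Related genes were also set against each other on the same array, which cancels any factor common to both. Because probe sets differ in brightness for reasons of probe design, only the shift of each difference from its saline mean is given, and no isoform is ranked above another. The pairs are described by their values on each array and were not tested. How often pairs of other genes separate was not computed. Slc2a1 minus Slc2a4 lay at -0.59, -0.54 and -0.63 in 2MT, against -0.01, 0.09 and -0.07 in saline. This was the largest shift of the 10 pairs that could be computed, -0.59, and it joins a gene that fell to one that did not pass.

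Slc16a3 minus Slc16a1 lay at -0.49, -0.14 and -0.23 in 2MT and at 0.03, -0.06 and 0.03 in saline, again without overlap. Ldha minus Ldhb lay at 0.22, 0.17 and 0.15 in 2MT and at -0.19, 0.06 and 0.13 in saline, where the groups were separated by only 0.02. The other 7 pairs overlapped, among them Hk1 with Hk2, Pfkl and Pfkp with Pfkm, Pygb with Pygm and Pgam1 with Pgam2, with shifts from -0.29 to 0.15.

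**Figure D3:**
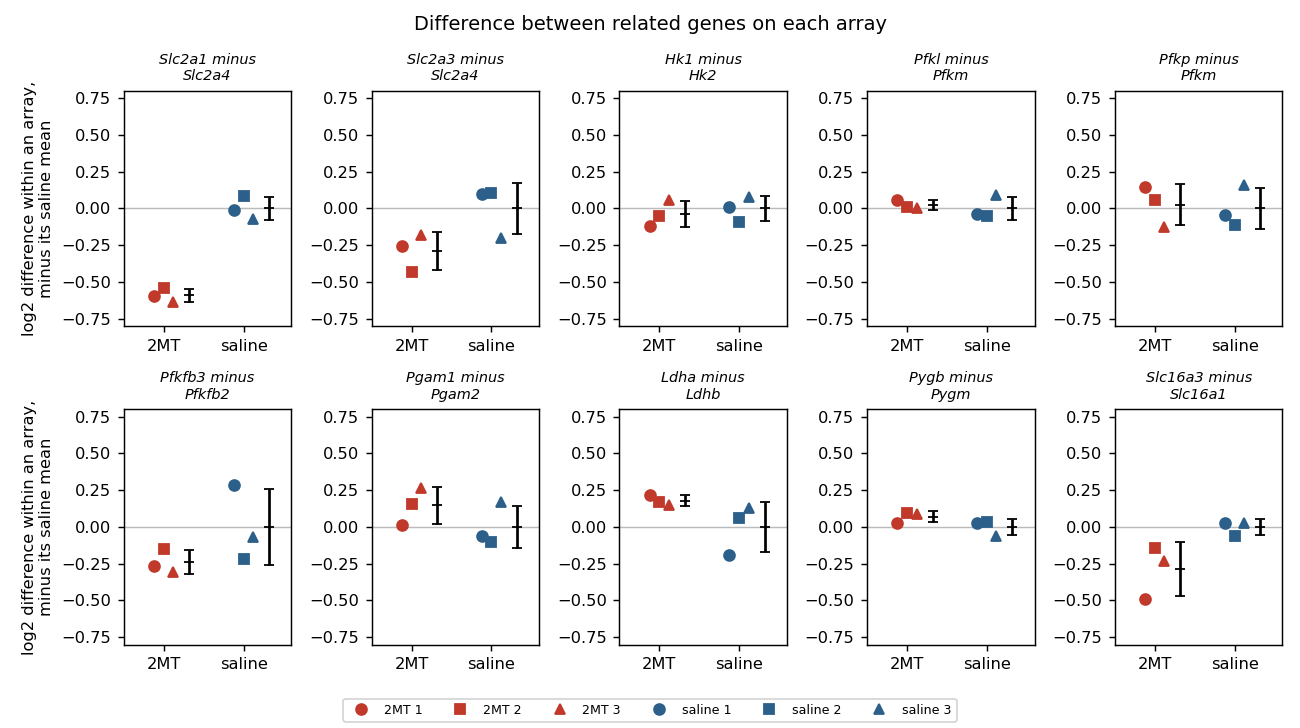
Difference in log2 signal between related genes on each array, shifted so that the saline mean is 0, for 10 pairs (3 arrays a group, bars are mean and SD). The groups are apart for Slc2a1 minus Slc2a4, Slc16a3 minus Slc16a1 and Ldha minus Ldhb, and overlap in the other 7 pairs. The pairs were not tested, and no share for pairs of other genes was computed.

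Other genes of the pathways were counted from lists written with earlier results of these arrays known. Among 29 further isoforms and carriers of glycolysis and glucose transport, 27 had a probe set and only 8 were bright enough to test. In limma 0 of the 8 passed (0 also at an unadjusted p under 0.05), against 4.63% and 17.8% of all genes tested. The 4 with the smallest p were Bsg, the chaperone of MCT1 and MCT4, at a difference of 0.07, G6pc3 at 0.10, Bpgm at -0.14 and Slc16a7 at -0.08.

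Among 24 further glycogen genes, 16 were tested, 1 rose and 0 fell, with a median of 0.05. Over all genes tested, 4.63% passed in either direction. An unadjusted p under 0.05 was reached by 3 of the 16 (18.8%), against 17.8% of all genes tested. Ppp1r3b, which targets protein phosphatase 1 to glycogen and favours synthesis, had 5.82, 6.00 and 6.26 in 2MT, against 5.29, 5.47 and 5.31 in saline. Each 2MT array was above each saline array, and Ppp1r3b rose by 0.67 ± 0.11 (SE), 1.59-fold (adjusted p = 0.0025). Its muscle relative Ppp1r3a had 9.84, 9.76 and 9.75 in 2MT and 9.55, 9.65 and 9.66 in saline and did not pass (adjusted p = 0.089). Pgm2l1 and Phkg2 differed by -0.23 and 0.17 with adjusted p values of 0.25 and 0.31, and Pgm2l1 differed by -0.13 without saline 1.

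Among 31 regulators of glucose uptake and use, 28 were tested, 4 rose and 3 fell, with a median of 0.0033. Beside these calls, 2.22% of all genes tested rose and 2.41% fell. An unadjusted p under 0.05 was reached by 11 of the 28 (39.3%), against 17.8% of all genes tested. This list was chosen with earlier results known, so its share is not a test of regulators. Irs1, an insulin receptor substrate, had 6.67, 6.65 and 6.78 in 2MT, against 5.95, 6.21 and 6.12 in saline. The groups were well apart, and Irs1 rose by 0.61 ± 0.08 (SE, adjusted p = 6.5e-04). Its call was lost with the mean of its probe sets (0.34, adjusted p = 0.13). Hif1a, the oxygen-regulated subunit of hypoxia-inducible factor 1, rose by 0.46 ± 0.06 (adjusted p = 7.2e-04), with 7.81, 7.73 and 7.88 in 2MT, against 7.31, 7.31 and 7.41 in saline. Slc2a1 is a known target of that factor, and a link between the Hif1a rise and the Slc2a1 fall was not tested. Tbc1d4, which holds GLUT4 inside the cell until insulin signals, had 7.20, 7.36 and 7.29 in 2MT, against 6.93, 7.02 and 6.81 in saline, and rose by 0.36 ± 0.07 (SE, adjusted p = 0.011). It lost its call without 2MT 2 (adjusted p = 0.067) or 2MT 3 (0.059).

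Mef2a, a transcription factor of the Slc2a4 gene, rose by 0.19 ± 0.05 (SE, adjusted p = 0.042). It passed in only 6 of 17 alternatives, with adjusted p values up to 0.18, and lost its call without any single array except saline 2. Myc, a transcription factor that drives glycolytic genes in dividing cells, had 4.21, 4.27 and 3.99 in 2MT, against 5.70, 5.31 and 5.78 in saline, and fell (adjusted p = 1.5e-05). All its 2MT values lay under the dim floor and it entered the test through its saline values, so the size of the fall is uncertain: the log2 difference was -1.44 as deposited and -0.93 with the offset of 16. Pdk4, which diverts pyruvate from oxidation, fell by 0.89 ± 0.08 and Klf15, a transcription factor of Slc2a4 in muscle cells, fell by 0.40 ± 0.07 (SE, adjusted p = 2.1e-05 for Pdk4 and 0.0033 for Klf15). Txnip, which restrains glucose uptake, had 10.60, 10.36 and 9.93 in 2MT and 10.59, 10.54 and 10.84 in saline and did not pass (adjusted p = 0.13). Its difference of -0.36 was -0.51 without 2MT 1, where it passed (adjusted p = 0.022), and -0.18 without 2MT 3.

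Of 15 tested genes of the pentose phosphate, hexosamine and polyol routes, 2 fell and 0 rose, with a median of -0.08. Beside these calls, 2.41% of all genes tested fell. An unadjusted p under 0.05 was reached by 4 of the 15 (26.7%), against 17.8% of all genes tested. The 2 that fell are enzymes of the pentose phosphate pathway, which branches from glycolysis at glucose phosphate. Pgd had 6.41, 6.30 and 6.21 in 2MT, against 7.29, 6.92 and 7.05 in saline, and fell by 0.78 ± 0.09 (SE, adjusted p = 2.1e-04). Tkt, transketolase, had 5.18, 4.82 and 5.21 in 2MT, against 5.72, 5.82 and 5.89 in saline, and fell by 0.74 ± 0.11 (adjusted p = 0.0012). Both falls were larger in size than that of Slc2a1, and their groups did not overlap. Pgls and Uap1 did not pass, at differences of -0.23 and -0.15.

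**Figure D4:**
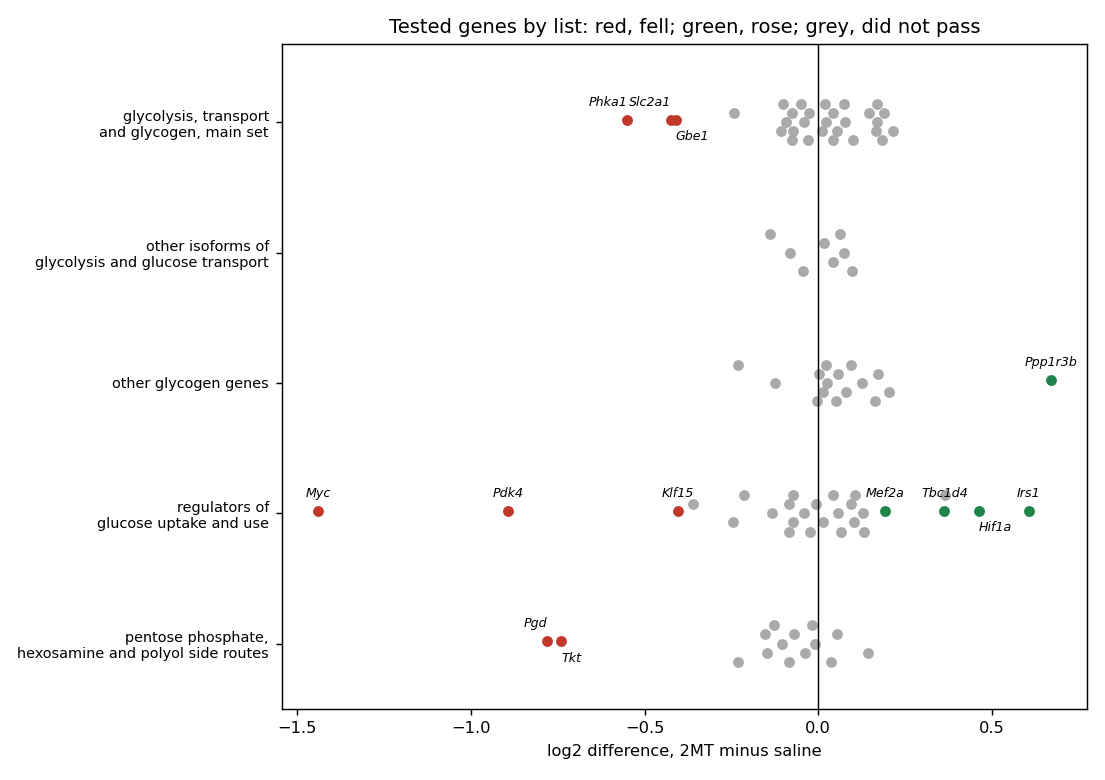
Log2 differences (2MT minus saline, 3 arrays each) of every tested gene of the main set and of 4 further lists, a point a gene, spread vertically for legibility. The main set holds 3 falls, the other isoforms no call, the glycogen list the rise of Ppp1r3b, the regulators 4 rises and 3 falls, and the side routes the falls of Pgd and Tkt.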

How the data were processed

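Gene expression was measured with 1 Affymetrix array per sample, from 100 ng of total RNA extracted with Trizol, per the labels' protocols. Each array has a single deposited value for every probe set, read here as log2 signal since the range is 0.51 to 13.5. No header states the base, and array medians lie between 4.32 and 4.37. The tool MAS5 is listed, without version or task, per the submitters' processing notes. Any other normalization step of the authors is not given in the sources used here. Background is unknown, so dim genes may show too small a fold change, and having 3 arrays per group limits precision.

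The 28944 probe sets comprised 21789 annotated with 1 gene, 1621 annotated with several genes and 5534 unnamed here. For each of the 19938 genes the brightest probe set (mean over 6 arrays) was kept. A floor of 4.345, the median of probe set means, removed dim genes. The comparison used lmFit and eBayes (variance trend, two-sided) of limma 3.58.1, run in R 4.3.3 with treatment alone in the model, and Benjamini-Hochberg adjustment over every tested gene. Alternatives changed the normalization, dim filter, offset, probe set rule, variance model, replicate block, threshold and arrays included. The procedure was also run on simulated data with known changes, but its recovery of changes as small as those of the set is not given here. Plots came from matplotlib 3.10.9 (Python 3.11.15).

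The genes and lists were chosen with earlier results of these data known. Named genes are every member, those called in each further list with up to 4 of smallest p, and Pdk4 and Txnip. Of the cell marker lists, 1 endothelial gene (Pecam1) and 1 adipocyte gene (Cidea) of 10 and 1 tested fell (4 and 1 at an unadjusted p under 0.05). The other adipocyte markers with a probe set, Adipoq, Plin1, Lep, Cidec, Retn and Ucp1, were under the dim floor. Beside the marker counts, 4.63% of all genes tested passed and 17.8% had an unadjusted p under 0.05. Among 9 fibroblast, 8 macrophage, 7 smooth muscle and pericyte, 5 skeletal muscle, 2 erythrocyte, 1 neuron and Schwann cell and 10 cardiomyocyte genes tested, 0 passed (1, 0, 1, 1, 0, 1 and 1 at an unadjusted p under 0.05), and 0 lymphocyte genes were bright enough.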

Additional observations from a re-analysis of the deposited data

How the results depend on the processing

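The falls of Slc2a1, Gbe1 and Phka1 passed in all 17 alternatives run for single genes (3 normalizations, 2 dim filters, an offset, 2 treatments of probe sets, no variance trend, array weights, the replicate block and each array left out). Their log2 differences ran from -0.44 to -0.37, from -0.47 to -0.35 and from -0.67 to -0.41, in that order. The count of falls was 3 under every setting, thresholds of 0.01 and 0.10 included, and the count of rises was 0 except 2 at 0.10 (Slc2a4 and Hk2) and 0 to 1 with an array left out. The count over all genes, 488, was 292 with no variance trend, 219 and 768 at thresholds of 0.01 and 0.10, and 262 to 648 with an array left out. The labels give no pairing of arrays beyond the replicate number. Deviations of same-numbered arrays correlated at 0.02 to 0.07, against -0.08 to 0.04 for arrays of different number and treatment. Of the 6 arrays, 5 correlated best with their own number (saline 3 did so with 2MT 2). Whether same-numbered arrays were handled together was not tested. With the replicate block the counts were 3 falls, 0 rises and 586 genes. Dim genes, among them Slc2a3, Slc16a3 and Pfkfb3, are limited by unknown background.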
